A study of Mus musculus with 8 samples.

Results

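Of the 5457 mouse genes in the deposited expression table, 7 are described here: Isyna1, Pcbd1, Dhrs4, Syt13, Atp6v0e2, Tmem179 and AW551984. They were picked from the group means of these same data because each was several-fold lower in Twist2 (Tw2) lineage cells than in Pax7 lineage cells in both cultures. The difference between the lineages is therefore what chose them, and it is described below without a test, while the change between the cultures within a lineage played no part in the choice and was tested. All 7 could be read back from the group means into single libraries and none was lost to a filter on low values.

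The cells came from adult C57BL/6 mice, from muscle of the hind limb, and carried 1 of 2 genotypes, Pax7-CreERT2/+;R26-tdTO+ or Tw2-CreERT2/+;R26-tdTO+. In each, a Cre recombinase that tamoxifen activates is produced where Pax7 or Twist2 is expressed, and it permanently switches on the red protein tdTomato, by which the cells were sorted. All mice received tamoxifen, with 3 treatments on alternate days given 10 days before harvest, and there was no group without it. After plating on Matrigel, 2 libraries were made for each of Pax7_GM and Tw2_GM, whose titles carry GM, and for each of Pax7_48 and Tw2_48, whose titles carry 48. The growth medium was Ham's F10 with 20% fetal bovine serum, and the medium for differentiation was DMEM with high glucose, 2% horse serum and bFGF; which of them the 48 cultures were in, and from when the 48 was counted, the labels leave unsaid. The extraction text speaks of freshly sorted cells and the source text of cultured ones. Sorting was by the reporter alone, so the groups are cells with a history of the driver gene, whatever they expressed at harvest. Neither the sex of the mice nor separate animals or cultures for the 2 libraries of a group are stated, so every p-value below measures only the spread between these libraries, which may be technical.

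Pax7 is the transcription factor of satellite cells, the stem cells that lie beside muscle fibres, which proliferate as myoblasts in rich medium and fuse into myotubes when serum is withdrawn. Twist2 is a basic helix-loop-helix factor that binds E-boxes, the short DNA motif also bound by the myogenic factor MyoD, and it is best known from mesenchymal cells. The 7 genes have no single pathway in common. Isyna1, Pcbd1 and Dhrs4 encode enzymes of small-molecule metabolism, which make inositol phosphate, recycle the cofactor tetrahydrobiopterin and reduce carbonyl compounds and retinoids. Syt13, Atp6v0e2 and Tmem179 encode membrane proteins: an atypical synaptotagmin, a subunit of the proton pump that acidifies vesicles and lysosomes, and a protein of little-known function. AW551984 carries a provisional name.

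The genes lie on 7 different chromosomes, and none overlaps another annotated gene (GENCODE vM21, GRCm38). Isyna1 is at chr8:70594373-70597290, Pcbd1 at chr10:61089331-61094324, Dhrs4 at chr14:55478758-55490340, Syt13 at chr2:92915098-92956058 and Atp6v0e2 at chr6:48537615-48541801, all on the plus strand. Tmem179 is at chr12:112500189-112516747 and AW551984 at chr9:39587396-39604403, both on the minus strand. All are annotated as protein coding, and the values below are given per gene, without separate values for exons or isoforms.

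The members were picked for moving together between the lineages, but they moved apart between the cultures, and the promoters of 5 of them are shown. Each run holds the 250 bases that end just before the gene's RefSeq start (GRCm38.p6), 5′ to 3′ on the gene's own strand, with every E-box of the form CANNTG in capitals. Dhrs4 and Atp6v0e2 had the smallest changes between the cultures in Pax7 cells, Isyna1 and Pcbd1 were higher at 48 in both lineages, and Tmem179 was lower at 48 in both. The windows are Dhrs4 at chr14:55478508-55478757, Atp6v0e2 at chr6:48537319-48537568, Isyna1 at chr8:70594231-70594480 and Pcbd1 at chr10:61089081-61089330 on the plus strand, and Tmem179 at chr12:112511161-112511410 on the minus strand. The Tmem179 window lies inside the GENCODE gene model, because the RefSeq start is downstream of the GENCODE one. For the same reason the Isyna1 window runs into its gene model, which starts at 70594373.
Dhrs4: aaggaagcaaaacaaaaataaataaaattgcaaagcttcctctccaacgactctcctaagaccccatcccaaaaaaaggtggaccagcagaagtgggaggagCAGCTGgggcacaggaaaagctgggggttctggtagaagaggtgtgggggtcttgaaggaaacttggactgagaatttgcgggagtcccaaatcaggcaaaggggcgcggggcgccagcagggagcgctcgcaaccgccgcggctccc
Atp6v0e2: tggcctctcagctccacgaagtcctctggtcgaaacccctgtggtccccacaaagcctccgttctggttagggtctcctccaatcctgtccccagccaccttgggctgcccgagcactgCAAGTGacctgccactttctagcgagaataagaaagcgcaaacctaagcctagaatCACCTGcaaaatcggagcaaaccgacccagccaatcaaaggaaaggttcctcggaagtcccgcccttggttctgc
Isyna1: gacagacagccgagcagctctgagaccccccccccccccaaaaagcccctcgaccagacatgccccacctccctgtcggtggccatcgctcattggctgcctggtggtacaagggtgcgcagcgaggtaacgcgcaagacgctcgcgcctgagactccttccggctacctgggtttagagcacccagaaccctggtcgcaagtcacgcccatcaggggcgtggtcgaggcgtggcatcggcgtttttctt
Pcbd1: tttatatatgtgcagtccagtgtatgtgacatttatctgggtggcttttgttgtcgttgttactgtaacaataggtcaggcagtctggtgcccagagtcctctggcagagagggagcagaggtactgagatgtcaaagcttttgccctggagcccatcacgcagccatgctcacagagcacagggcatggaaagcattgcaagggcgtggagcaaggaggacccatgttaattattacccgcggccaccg
Tmem179: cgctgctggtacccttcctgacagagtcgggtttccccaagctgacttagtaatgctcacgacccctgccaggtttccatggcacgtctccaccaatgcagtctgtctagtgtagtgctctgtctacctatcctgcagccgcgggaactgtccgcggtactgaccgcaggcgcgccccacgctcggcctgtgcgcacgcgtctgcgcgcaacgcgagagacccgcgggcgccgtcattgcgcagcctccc
RefSeq promoters were found for 6 of the 7 genes, in 8 windows, since AW551984 has 3 starts.

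The motif CANNTG reads the same on both strands and includes CAGCTG, the form in the Dhrs4 promoter. In windows from 250 bases before to 50 after the start, it occurred once for Dhrs4 and 2 times for Atp6v0e2, and was found in each of the 3 windows of AW551984. The windows of Isyna1, Pcbd1 and Tmem179 held none. Thus 3 of 6 genes had at least 1, against 72.3% of all 32851 mouse promoters of that length, and 2 of 6, AW551984 and Atp6v0e2, had one within the last 100 bases, against 34.4%. The letters CCAAT, searched on both strands, occurred in the windows of Isyna1, Tmem179 and Atp6v0e2 and in 1 window of AW551984, against 37.4% of all promoters. The promoters also differed in CpG dinucleotides per window, from 2 to 7 for AW551984 over 10 for Pcbd1 and 15 for Dhrs4 to 24 for Isyna1 and 36 for Tmem179, the last above 93.8% of all promoters. Such matches describe letters in a window and say nothing about binding in these cells.

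Library sizes implied by the deposited means ran from 5.18 to 13.7 M reads, so that 3 reads, the upper limit that a count of 0 allows, come to between 0.218 and 0.579 CPM (reads scaled to library size). The 2 Pax7_GM libraries were less alike than those of any other group, with a Pearson r of 0.962 over genes against 0.994 to 0.996. Every listed gene differs at least 2-fold from Tw2_GM in some group of the table (on the log2(CPM + 1) scale of the authors' means), and between the lineages 48.7% of genes were called higher and 26.0% lower in Tw2 in GM (74.7% in all), and 43.3% and 22.1% at 48 (65.4% in all; limma, adjusted p under 0.05). With size factors the split was 25.6% and 53.9% in GM, and 17.3% and 48.3% at 48. Summed over the 9 of 14 listed markers of satellite cells and myoblasts, Tw2_GM stood at 3045 to 3088 CPM and Pax7_GM at 3401 to 3944 CPM, and at 48 the sums were 9841 to 9876 CPM in Tw2 and 10595 to 10904 CPM in Pax7. These sums hide opposed genes: 1 was called higher and 3 lower in Tw2 in GM, and 3 and 4 at 48. Myog was at −1.98 (Tw2 minus Pax7, log2) in GM and 0.67 at 48, and Megf10 at 1.62 and 1.45. From GM to 48, Des, Myog, Itga7 and Cdh15 rose in both lineages, while Pax7, Vcam1, Sdc4 and Cxcr4 fell. In GM, Pax7 itself was at 117 and 112 CPM in the Pax7 libraries and at 113 and 109 CPM in the Tw2 libraries. The 4 of 14 listed fibroblast markers summed to 917 to 928 CPM in Pax7_GM, 948 to 999 CPM in Tw2_GM, 403 to 431 CPM in Pax7_48 and 204 to 243 CPM in Tw2_48. Of these 4, Col3a1 was higher in Tw2 in both cultures and makes up most of these sums in Tw2 cells, and Col1a2 and Prrx1 were lower in Tw2 in both cultures, as the 7 genes are; their part in the result was not tested. Scx, the 1 of 7 tenocyte markers listed, was lower in Tw2 as well, at 27.5 to 32.1 CPM in Tw2_GM against 91.4 to 110 CPM in Pax7_GM, and at 219 to 259 against 320 to 348 CPM at 48. The 7 of 10 markers of pericytes and smooth muscle summed to 874 to 937 CPM in Tw2_GM and 937 to 1066 CPM in Pax7_GM, and to 8561 to 8960 and 5361 to 5658 CPM at 48. Acta2 makes up most of each of these sums, and the 7 did not move together. In GM, Rgs5 and Cspg4 were called higher in Tw2, and Notch3, Abcc9 and Acta2 lower. At 48, 4 were called higher and 1 lower. The 2 of 13 glial and neuronal markers, Ncam1 and Tubb3, summed to 668 to 688 in Tw2_GM against 489 to 567 CPM, and to 2255 to 2490 against 1529 to 1630 CPM at 48. Most of each sum is Ncam1, which was called higher in Tw2 at 48 but not in GM (limma adjusted p = 0.0927). Tubb3 was called higher in both. Itgam, the 1 of 10 immune markers, had 0 reads in Tw2_GM and stood at 0.542 to 0.579 CPM in Pax7_GM, and at 18.1 to 22.8 and 11.9 to 15.9 CPM at 48. The part of these cell types in the result was not tested either. No marker of endothelium or adipocytes was among the genes analysed here, nor were Twist2 and Pdgfra.

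Every gene of the table that could be read back reached 10 CPM in no fewer than 4 of the 8 libraries, so members that were below 10 CPM in all Tw2 libraries, which is all but Isyna1, had to be above it in every Pax7 library. The members' Pax7 values started at 11.3 CPM, and in Tw2 lineage cells they ranged from 0.437 CPM for Tmem179 to 25.4 CPM for Isyna1. The ratio of the authors' mean CPM of Pax7 to that of Tw2 cells in GM was largest for Syt13, at 22.9, and smallest for Isyna1, at 4.15. At 48 it was largest for AW551984, at 61.4, and smallest for Pcbd1, at 7.54. For every member the lowest of the 4 Pax7 libraries was above the highest of the 4 Tw2 libraries, by a ratio between 1.59 (Tmem179) and 13.6 (AW551984). That separation is no result: for all but Isyna1 the limit of 10 CPM fixed it, and for Isyna1 the choice of members makes it likely. These are bulk RNA values, in which fewer cells with a transcript and less of it per cell cannot be told apart.

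**Figure D1:**
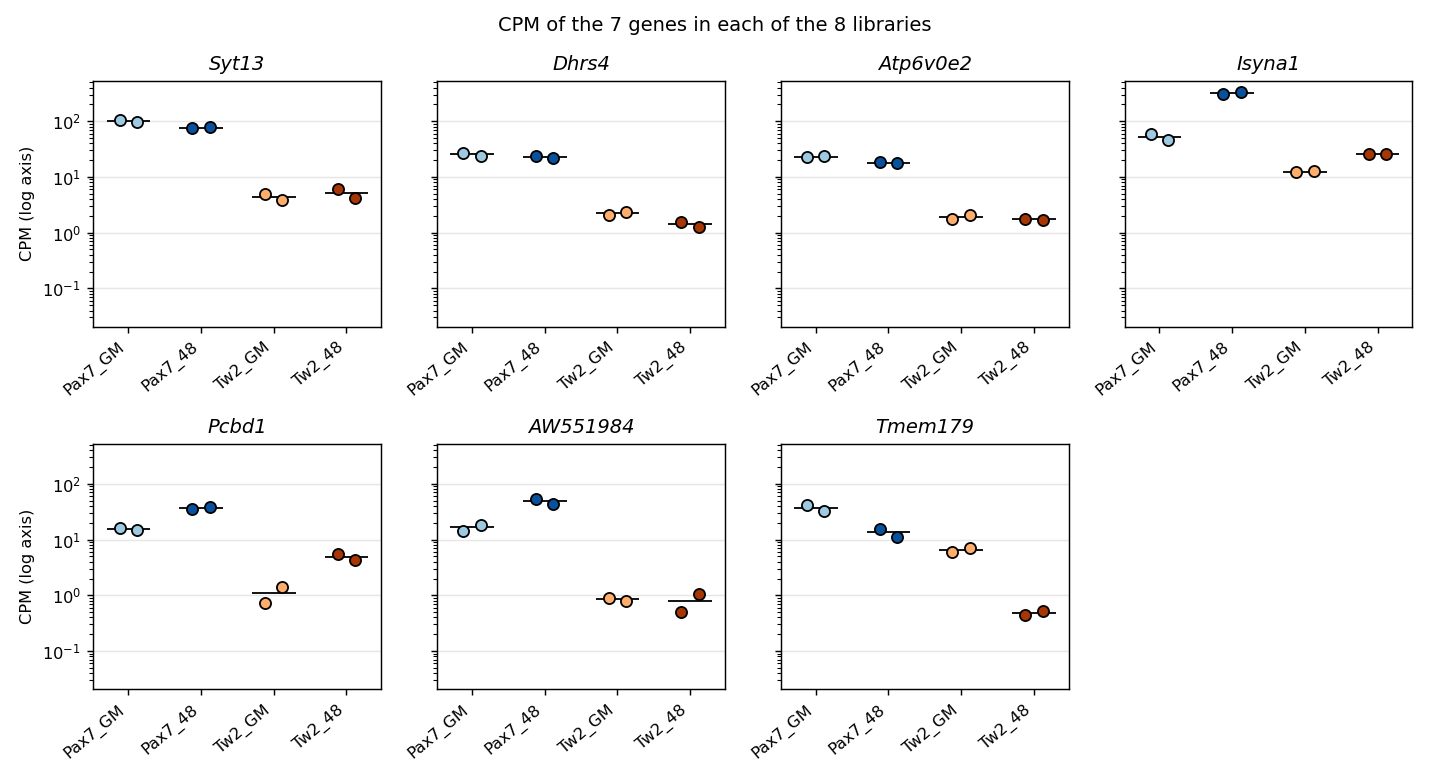
CPM (log axis) of each of the 7 genes in each of the 8 libraries, grouped by lineage and culture, with 1 point per library and a line at the group mean. For every gene the 4 Pax7 libraries lie above the 4 Tw2 libraries, which the choice of genes and the limit of 10 CPM fixed for all but Isyna1. Isyna1 and Pcbd1 are higher at 48 than in GM in both lineages, and Tmem179 is lower at 48 in both.

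Isyna1 encodes inositol phosphate synthase, which turns glucose phosphate into inositol phosphate, the first step by which a cell makes its own inositol. It stood at 58.0 and 45.3 CPM in Pax7_GM and at 302 and 331 CPM in Pax7_48. In Tw2 cells it was at 12 and 12.9 CPM in GM and at 25.4 CPM in both libraries at 48. The 48 libraries lay above the GM libraries in each lineage, and the highest Tw2 library was still below the lowest Pax7 one. On the log2(CPM + 1) scale it rose from GM to 48 by 2.60 ± 0.15 in Pax7 cells (SE, the standard error, over 2 libraries a group; limma adjusted p = 1.23e-06) and by 0.97 ± 0.15 in Tw2 cells (limma adjusted p = 0.000328). In the authors' means these changes are 6.12-fold and 2.04-fold. The rise in Tw2 cells was 0.38 once a trend with the GC content and length of transcripts was removed, and it was still called.

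Pcbd1, pterin carbinolamine dehydratase, recycles the cofactor tetrahydrobiopterin of the aromatic amino acid hydroxylases and also binds the transcription factor hepatocyte nuclear factor. Its level was 16.3 and 14.7 CPM in Pax7_GM and 35.4 and 37.8 CPM in Pax7_48. In Tw2 cells it was 0.739 and 1.42 CPM in GM and 5.46 and 4.26 CPM at 48. The 48 libraries were again the higher ones in each lineage, without overlap. Pcbd1 rose by 1.19 ± 0.19 in Pax7 cells (limma adjusted p = 0.00041) and by 1.51 ± 0.19 in Tw2 cells (limma adjusted p = 8.23e-05), or 2.37-fold and 4.51-fold in the authors' means. The Tw2_GM values rest on 9 and 16 reads, and with a pseudocount of 5 CPM in place of 1 the rise in Tw2 cells was 0.70, still called.

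Dhrs4, a dehydrogenase of peroxisomes that reduces carbonyl compounds and acts on retinoids, was at 26.7 and 24.1 CPM in Pax7_GM and at 23.3 and 21.6 CPM in Pax7_48. In Tw2 cells it was at 2.05 and 2.39 CPM in GM and at 1.53 and 1.28 CPM at 48. The Pax7 libraries thus held a narrow range across both cultures, 11.4-fold and 16-fold above Tw2 cells in the authors' means. Its change from GM to 48 was −0.17 ± 0.14 in Pax7 cells (limma adjusted p = 0.274). Once the GC and length trend was removed, that change was −0.40 and was called (limma adjusted p = 0.029). In Tw2 cells the change was −1.04 once that trend was removed, and without that removal Dhrs4 fell by 0.42 ± 0.14 (limma adjusted p = 0.0176). That call was lost with a pseudocount of 5 (−0.17), with size factors (−0.12), without the shallower Tw2_48 library (−0.35) and without the shallower Tw2_GM library (−0.35), with adjusted p from 0.115 to 0.468 in these 4.

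Syt13 belongs to the synaptotagmins, most of which sense calcium at membrane fusion, but lacks the residues that bind it. It stood at 106 and 96.1 CPM in Pax7_GM and at 74.2 and 79.5 CPM in Pax7_48, the most abundant of the 7 by CPM in Pax7_GM. In Tw2 cells it was at 4.93 and 3.90 CPM in GM and at 6.04 and 4.26 CPM at 48. The libraries of the cultures overlapped in Tw2 cells and did not in Pax7 cells. The change from GM to 48 was −0.39 ± 0.18 in Pax7 cells (limma adjusted p = 0.0729) and 0.18 ± 0.18 in Tw2 cells (limma adjusted p = 0.373). Neither was called, although that in Pax7 cells was with quantile normalization (−0.45), a pseudocount of 5 (−0.37) or without the shallower Pax7_GM library (−0.46), and that in Tw2 cells with size factors (0.52).

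Atp6v0e2 is an isoform of subunit e in the membrane sector of the vacuolar proton pump (V-ATPase). Its level was 22.9 and 23.3 CPM in Pax7_GM and 18.3 and 17.8 CPM in Pax7_48, against 1.73 and 2.04 CPM in Tw2_GM. In Tw2_48 it was 1.75 and 1.70 CPM. The 4 Tw2 libraries were the most alike of any member. In Pax7 cells Atp6v0e2 fell by 0.34 ± 0.12 (limma adjusted p = 0.0322), and in Tw2 cells the change was −0.08 ± 0.12 (limma adjusted p = 0.57). The change in Tw2 cells was −0.52 and called once the GC and length trend was removed (limma adjusted p = 0.00982), and 0.19 with size factors. The fall in Pax7 cells lost its call in 10 of the 16 alternatives, among them size factors (−0.10, adjusted p = 0.468), a fit to the 4 Pax7 libraries alone, and the fits without either Pax7_48 library or without any 1 of the 4 Tw2 libraries.

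Tmem179 encodes a transmembrane protein and was the only member called lower at 48 in both lineages under each of the 16 alternatives tried. Its values were 42.3 and 32.4 CPM in Pax7_GM and 15.8 and 11.3 CPM in Pax7_48. In Tw2 cells they were 6.00 and 7.08 CPM in GM and 0.437 and 0.532 CPM at 48, which rest on 6 and 5 reads. The cultures did not overlap in either lineage. Tmem179 fell by 1.41 ± 0.20 in Pax7 cells (limma adjusted p = 0.000202) and by 2.34 ± 0.20 in Tw2 cells (limma adjusted p = 7.16e-06), and the authors' means were 2.76-fold and 13.5-fold higher in GM. With a pseudocount of 5 the change in Tw2 cells was −1.07.

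AW551984, whose longest transcript is 75.5% identical to that of Vwa5a (a protein with a von Willebrand factor A domain) over 1938 of its 4293 bases, was at 14.5 and 18.5 CPM in Pax7_GM and at 52.9 and 43.7 CPM in Pax7_48. In Tw2 cells it was at 0.904 and 0.797 CPM in GM and at 0.510 and 1.06 CPM at 48, or 7 to 11 reads in each library. The Pax7_48 libraries lay well above Pax7_GM, and the Tw2 libraries of the cultures overlapped. AW551984 rose by 1.5 ± 0.20 in Pax7 cells (limma adjusted p = 0.000136), or 2.93-fold in the authors' means. In Tw2 cells the change was −0.07 ± 0.20 (limma adjusted p = 0.758), and from reads alone the ratio of 48 to GM was 0.862, with an exact 95% interval from 0.424 to 1.73 that covers counting error only. That change had the other sign with size factors (0.12), without the deeper Tw2_48 library (0.16) and with the GC and length trend removed (0.42, adjusted p = 0.0361).

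Across the members, 3 of 7 were called higher and 2 lower at 48 in Pax7 cells, where 38.8% of all genes were called higher and 40.5% lower. In Tw2 cells 2 of 7 were called higher and 2 lower, where the background was 35.3% higher and 48.9% lower. The median change of the 7 was −0.17 in Pax7 cells, beside 0.01 over all genes, and −0.07 in Tw2 cells, beside −0.49. Counting both directions together, 5 of 7 were called in Pax7 cells, where 79.2% of all genes were, and 4 of 7 in Tw2 cells, where 84.1% were. The calls of Isyna1, Pcbd1 and Tmem179 in both lineages and of AW551984 in Pax7 cells held in all 16 alternatives.

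**Figure D2:**
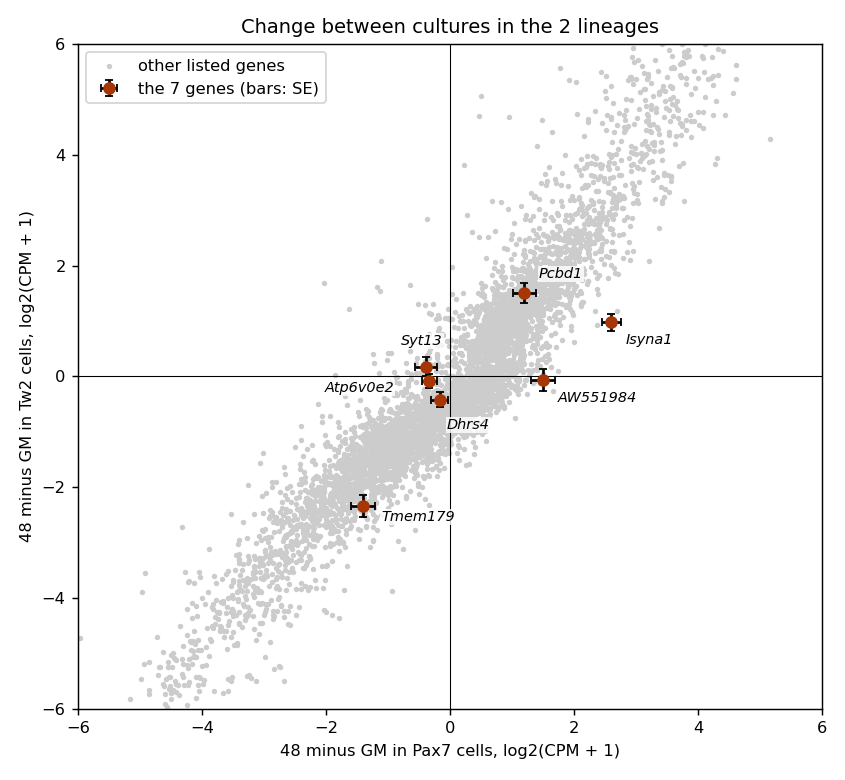
Change from GM to 48 in Tw2 cells (y axis) against that in Pax7 cells (x axis), on the log2(CPM + 1) scale, with 1 point per gene and bars of 1 SE for the 7 members (2 libraries per group); 62 other genes lie outside the plotted range of 6. Isyna1 and Pcbd1 lie above 0 on both axes, Tmem179 lies below 0 on both, and AW551984 lies at 1.5 in Pax7 and near 0 in Tw2 cells.

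The lineage difference changed with the culture for some members, given here as a description because the lineage contrasts chose the genes. As Tw2 minus Pax7 on the log2(CPM + 1) scale, AW551984 was at −3.23 in GM and −4.80 at 48, and Isyna1 at −1.96 and −3.58. Tmem179 went from −2.34 to −3.27 and Dhrs4 from −3.03 to −3.29. The other 3 were nearer 0 at 48, with Syt13 at −4.24 and −3.68, Atp6v0e2 at −3.07 and −2.81, and Pcbd1 at −3.0 and −2.69. The shift from GM to 48 was thus below 0 in 4 of 7, from −0.25 ± 0.19 for Dhrs4 to −1.63 ± 0.21 for Isyna1, and above 0 in 3, from 0.26 ± 0.17 for Atp6v0e2 to 0.56 ± 0.25 for Syt13. With a pseudocount of 5 the shift of Tmem179 was 0.12 and that of Pcbd1 −0.33, and with the GC and length trend removed that of Atp6v0e2 was −0.09, so the direction of these 3 depended on the processing. Whether AW551984 responded differently in the lineages was not tested.

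**Figure D3:**
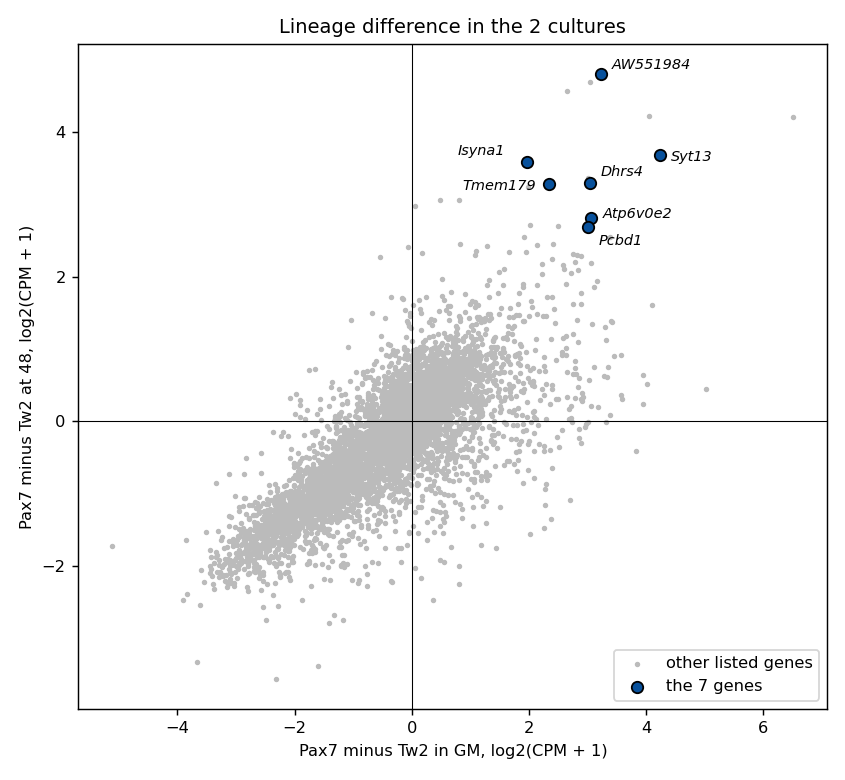
Pax7 minus Tw2 at 48 (y axis) against Pax7 minus Tw2 in GM (x axis), on the log2(CPM + 1) scale, with 1 point per gene and the 7 members named. The axes have the opposite sign to the text, so all 7 lie above 0 on both, where their selection places them, and AW551984, Isyna1 and Tmem179 lie further from 0 at 48 than in GM.

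The lineage difference of the listed genes also followed transcript GC content, with median Tw2 minus Pax7 values in GM of 1.83 in group 1 and −0.37 in group 5 of 5 equal groups ordered from GC-poor to GC-rich. AW551984 belongs to group 2, Pcbd1 to group 3, Syt13, Dhrs4 and Atp6v0e2 to group 4, and Isyna1 and Tmem179 to group 5. With the trend removed every member was still lower in Tw2, and in GM AW551984 was then at −4.00, Syt13 at −3.61, Atp6v0e2 at −2.03, Pcbd1 at −1.95, Dhrs4 at −1.88, Tmem179 at −1.33 and Isyna1 at −0.92. At 48 the values ran from −5.26 for AW551984 to −1.93 for Pcbd1. No alternative reversed the lineage difference of any member in either culture. Only quantile normalization and trend removal could have, because the others keep every Pax7 library above every Tw2 library. Size factors could only widen the difference, as they were 0.713 to 0.881 in Pax7 libraries and 1.12 to 1.59 in Tw2 libraries.

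The members do not form a separate class in this table but the upper part of a continuous ranking. Ordered by the smaller of their 2 lineage differences on the log2(CPM + 1) scale, Syt13 was in place 3 at 3.68, AW551984 in place 4 at 3.23, Dhrs4 in place 6 at 3.03, Atp6v0e2 in place 8 at 2.81 and Pcbd1 in place 9 at 2.69. Tmem179 was in place 14 at 2.34, between Npdc1 at 2.42 and Tap2 at 2.31, and Isyna1 in place 30 at 1.96, between Ndn at 1.99 and 5730409E04Rik at 1.95. Col1a2 and the exchange factor Arhgef5 stood above all members, at 4.21 and 4.06, and the imprinted RNAs Rian (3.04) and Meg3 (2.64) and the mesenchymal transcription factor Prrx1 (3.01) stood among them. In all, 28 genes were at least 4-fold and 7 at least 8-fold lower in Tw2 in both cultures on that scale. Called lower in Tw2 in both were 799 genes, 14.7% of those tested.

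Per kilobase of the longest transcript, in the authors' mean CPM, Isyna1 was the highest member in Pax7_48, at 165 CPM per kb. Pcbd1 followed at 46.4, Syt13 at 20.4, Dhrs4 at 16.1, AW551984 at 11.3, Atp6v0e2 at 10.1 and Tmem179 at 5.68 CPM per kb. In Pax7_GM the range was narrower, from 27.0 for Isyna1 and 26.8 for Syt13 to 3.85 CPM per kb for AW551984. In Tw2_48 Isyna1 was again highest, at 13.3, followed by Pcbd1 at 6.16 CPM per kb, while Tmem179 and AW551984 were lowest at 0.204 and 0.183 CPM per kb. The single libraries overlapped per kilobase between Isyna1 and Syt13 in Pax7_GM, between AW551984 and Atp6v0e2 in Pax7_48, and between Tmem179 and AW551984 in Tw2_48, so their order there is not beyond the spread.

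Likeness of pattern was measured as the Euclidean distance between profiles over the 8 libraries on the log2(CPM + 1) scale after each gene's mean was subtracted. Nearest to the mean profile of the 7 were the peptide transporter subunit Tap2 (1.23), the lactate dehydrogenase subunit Ldhb (1.39), the secreted ligand Gas6 (1.40), Arhgef5 (1.40) and Prrx1 (1.45). Among single members, Dhrs4 and Atp6v0e2 were each other's nearest, at 0.522, and the nearest to Isyna1 was Pcbd1, at 1.55. Rian was nearest to AW551984 (0.744), Arhgef5 to Syt13 (0.767), Ctgf to Tmem179 (1.23) and S100a1 to Pcbd1 (0.854).

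Other listed genes of the members' pathways and families are given by the calls of the same fits, beside the shares over all genes of 48.7% higher and 26.0% lower in Tw2 in GM and 43.3% and 22.1% at 48. With size factors these shares were 25.6% and 53.9% in GM, and 17.3% and 48.3% at 48. After removal of the GC and length trend they were 62.9% and 14.9% in GM, and 47.2% and 13.1% at 48. Among 12 listed genes of the V-ATPase and its assembly, from a list of 31, 4 were called higher and 6 lower in Tw2 in GM, and 3 and 5 at 48 (3 lower at 48 without the shallower Tw2_48 library). The counts in GM became 3 and 9 with size factors and 5 and 5 after removal of the GC and length trend. The accessory subunit Atp6ap2 was higher in Tw2 in both cultures (1.85 ± 0.17 in GM, limma adjusted p = 7.69e-05), as was the catalytic subunit Atp6v1a (1.38 ± 0.20 in GM, limma adjusted p = 0.000425). At 48 Atp6v1a was less far from 0, at 0.81 ± 0.20 (limma adjusted p = 0.00877), and at 0.67 to 0.96 with 1 library left out. Atp6v1f was lower in GM (−1.05 ± 0.15, limma adjusted p = 0.000356) and so was the pump-associated protein Rnasek (−0.88 ± 0.18, limma adjusted p = 0.00247), but both were above 0 with the trend removed, at 0.26 and 0.54. Between the cultures most of this group moved one way: 11 of 12 rose and none fell from GM to 48 in Pax7 cells, and 10 rose and 1, Atp6v1a, fell in Tw2 cells, where over all genes 38.8% and 40.5% were called in Pax7 and 35.3% and 48.9% in Tw2 cells. The fall of Atp6v1a was not called without any 1 of the 4 Tw2 libraries. Their median changes were 0.93 in Pax7 cells, beside 0.01 over all genes, and 0.96 in Tw2 cells, beside −0.49. Atp6v0e2, at −0.34 and −0.08, was not called higher in either; the ubiquitous paralogue Atp6v0e was not analysed here.

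**Figure D4:**
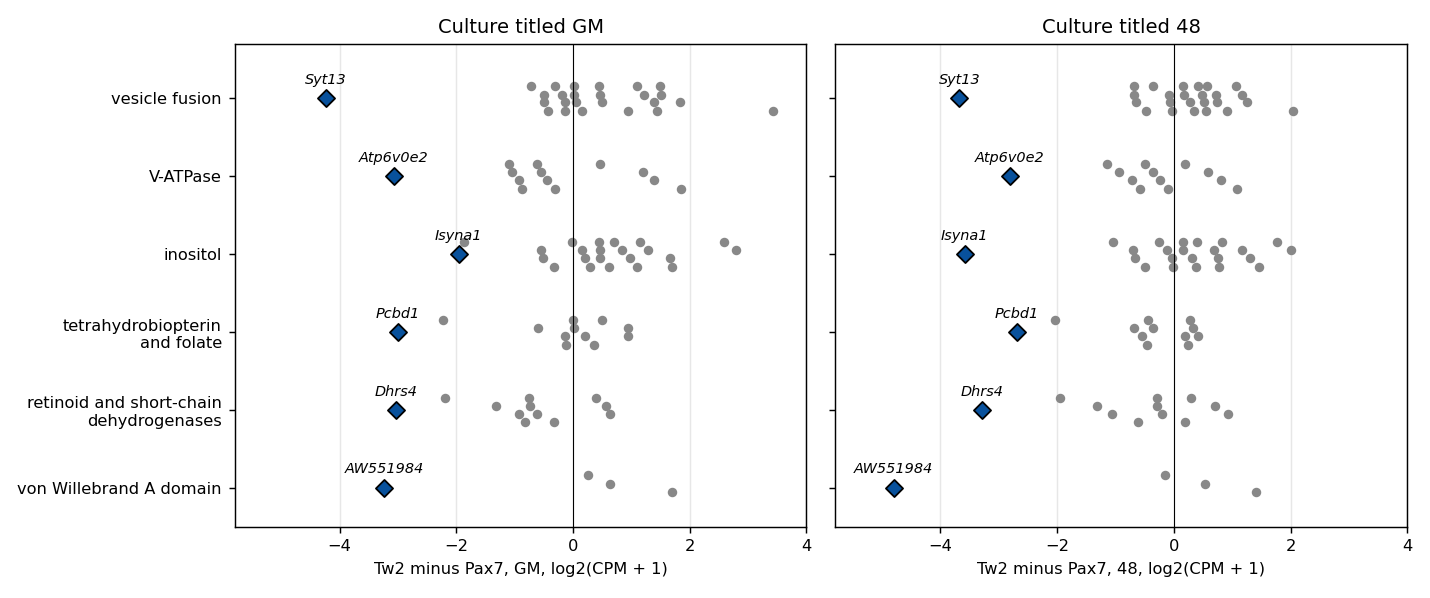
Log2 difference Tw2 minus Pax7 in GM and at 48 for each listed gene of the 6 families with listed genes, 1 point per gene, with the member of each family marked. In each row the member, marked by a diamond, is the lowest gene, as its selection favours, and in 5 of the 6 rows the other genes lie on both sides of 0 in both cultures.

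Of 24 listed regulators of vesicle fusion, from a list of 68 around Syt13, 12 were called higher and 4 lower in Tw2 in GM and 11 and 5 at 48. Size factors turned these to 6 and 13, and 3 and 10, where they also moved the shares over all genes to 25.6% and 53.9%, and 17.3% and 48.3%. The share called higher in GM, 12 of 24, is near the 48.7% of all genes. The counts rested on single libraries: in GM 1 was lower without the deeper Tw2_GM library, 2 without the shallower one and 7 without the shallower Pax7_GM library. At 48, 4 were higher without the deeper Tw2_48 or the shallower Pax7_48 library, and 2 or 3 were lower without any 1 of the 4 libraries compared. The synaptotagmin-like Sytl5 was at 2.71 and 5.79 CPM in Pax7_GM and at 64.2 and 43.7 CPM in Tw2_GM (3.43 ± 0.30, limma adjusted p = 6.67e-05), opposite to Syt13. The fusion protein Snap23 (1.49 ± 0.26, limma adjusted p = 0.000964) and the syntaxin-binding Stxbp4 (1.43 ± 0.22, limma adjusted p = 0.00053) were higher in Tw2_GM too. From GM to 48, 12 rose and 7 fell in Pax7 cells (38.8% and 40.5% of all genes), and 11 rose and 11 fell in Tw2 cells (35.3% and 48.9%).

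Among 22 listed genes of inositol synthesis, transport and phosphoinositide turnover, from a list of 51 around Isyna1, 14 were called higher and 3 lower in Tw2 in GM, and 10 and 4 at 48. Size factors turned these to 5 and 9, and 4 and 10, beside 25.6% and 53.9%, and 17.3% and 48.3%, of all genes. Without the shallower Tw2_GM library 1 was lower in GM, and without the shallower Pax7_48 library 6 were higher and 2 lower at 48. The diphosphoinositol kinase Ppip5k2 was at 7.59 and 13.3 CPM in Pax7_GM and at 84.0 and 68.3 CPM in Tw2_GM (2.79 ± 0.25, limma adjusted p = 7.64e-05), and Plcb4, a phospholipase C, was also higher in Tw2_GM (1.67 ± 0.21, limma adjusted p = 0.000218). Another phospholipase C, Plcg2, was lower (−1.86 ± 0.20, limma adjusted p = 0.000122). From GM to 48, 9 rose and 11 fell in Pax7 cells (7 fell without the shallower Pax7_48 library) and 9 rose and 12 fell in Tw2 cells, of 22 in each, near the shares over all genes of 38.8% and 40.5% in Pax7 and 35.3% and 48.9% in Tw2 cells.

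Around Pcbd1, 11 genes of tetrahydrobiopterin and folate metabolism were listed of 27, with 4 higher and 2 lower in Tw2 in GM and 0 and 4 at 48, beside 48.7% and 26.0% of all genes in GM. With size factors the counts were 0 and 8, and 0 and 7, beside 25.6% and 53.9%, and 17.3% and 48.3%, of all genes. Only 2 were higher in GM without either Tw2_GM library, either Pax7_48 library or the shallower Pax7_GM library, 3 were higher at 48 without either Pax7_GM library, and 2 were lower at 48 without the deeper Pax7_48 or the shallower Tw2_48 library. Cbr1, a carbonyl reductase that can act on pterins, was at 18.7 and 17.0 CPM in Pax7_GM and at 2.71 and 3.36 CPM in Tw2_GM, and it was lower in Tw2 in both cultures, by −2.23 ± 0.17 in GM (limma adjusted p = 3.43e-05) and −2.03 ± 0.17 at 48 (limma adjusted p = 0.000134). It is the 1 gene of these lists that, with the members, stood among the first 30 of the ranking. From GM to 48, 4 rose and 6 fell in Pax7 cells (38.8% and 40.5% of all genes), and 4 rose and 7 fell in Tw2 cells (35.3% and 48.9%), of 11 in each.

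Around Dhrs4, 11 retinoid and short-chain dehydrogenase genes were listed of 58, of which 2 were higher (1 without either Tw2_GM library) and 8 lower in Tw2 in GM and 2 and 4 at 48, beside 26.0% and 22.1% lower over all genes. Once the GC and length trend was taken out, the counts were 3 and 1, and 5 and 3, beside 62.9% and 14.9%, and 47.2% and 13.1%, of all genes. Sdr39u1 was lower by −1.32 ± 0.15 in GM (limma adjusted p = 0.000167) and −1.95 ± 0.15 at 48 (limma adjusted p = 0.000118), with −0.11 in GM once the trend was removed. The retinol dehydrogenase Rdh5 was at 56.2 and 47.1 CPM in Pax7_GM and 30.4 and 29.9 CPM in Tw2_GM (−0.75 ± 0.16, limma adjusted p = 0.00303), and was above 0 with the trend removed (0.43). The peroxisomal reductase Decr2 was at −0.73 ± 0.12 in GM (limma adjusted p = 0.000791), and Hsd17b7, an enzyme of sterol synthesis, was higher in Tw2 at 0.64 ± 0.17 (limma adjusted p = 0.00799), a sign that size factors (−0.19) and trend removal (−0.21) turned. Hsd17b7 rose at 48 by 2.36 ± 0.17 in Pax7 cells and 2.65 ± 0.17 in Tw2 cells, while Rdh5 changed by −2.66 ± 0.16 and −3.22 ± 0.16. In all, 6 of these 11 genes rose and 3 fell in Pax7 cells (38.8% and 40.5% of all genes), and 8 rose and 3 fell in Tw2 cells (35.3% and 48.9%). Of 28 genes with a von Willebrand factor A domain listed around AW551984, 3 were in the table. Of those 3, the calcium channel subunit Cacna2d1 (1.70 ± 0.21, limma adjusted p = 0.00021) and the collagen-binding receptor Antxr2 (0.64 ± 0.17, limma adjusted p = 0.00846) were higher in Tw2_GM (1 of them without the shallower Tw2_GM library), the latter turned by size factors (−0.23) and trend removal (−0.41). Vwa5a, Dhrs2, Pcbd2 and Tmem179b were not analysed here.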

How the data were processed

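RNA from 8 libraries of cultured, sorted cells was sequenced, per the labels. The authors deposited 1 table of mean CPM (reads scaled to library size) per group, with 2 libraries each, and log2 fold changes against Tw2_GM, per the file headers. TopHat2 2.0.0, the genome GRCm38 (mm10) and DESeq2 1.6.3 are named, without a role, per the submitters' processing notes; the counting tool and its strand setting are not given in the sources used here, so reads shared with paralogues cannot be placed. The 7 genes, the gene lists and the tests were chosen with earlier results of these data known.

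Each mean was split into whole reads of 2 libraries, called deeper and shallower because the means carry no replicate number. This gave 1 solution in all 4 groups for 5452 of 5457 genes (not for Myh3, Actc1, Mylpf, H19 and Acta1), and on simulated means for 5453 to 5457 genes, all right. The implied sizes were not whole numbers and may hold a scaling by the authors. At 5.18 to 13.7 M reads per library, counting error is large for members at 5 to 11 reads.

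limma 3.58.1 (R 4.3.3) was fitted to log2(CPM + 1) of all 8 libraries with 1 mean per group (4 residual and 4.02 prior degrees of freedom), and p-values were adjusted by Benjamini and Hochberg over 5452 genes within a comparison, with calls at 0.05. Fold changes on this scale understate changes of genes near 1 CPM, and the spread behind each SE is pooled over all groups. The alternatives were pseudocounts of 0.5 and 5, a mean of at least 10 CPM, size factors, quantile normalization, a GC and length trend removed, eBayes with trend, only the 4 libraries compared, and leaving out each library. Named genes are the 7 members, the genes nearest to them in rank and profile, and up to 4 genes of each list with the largest mean lineage difference among those called in both cultures. Gene models were GENCODE vM21, and promoters came from RefSeq.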

Additional observations from a re-analysis of the deposited data

Results flagged for a closer look

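The check was limited to the 19 family genes named above, and for 2 of them the difference between Tw2 and Pax7 cells in GM differed from that at 48 by a test of the difference itself (limma interaction, adjusted over all genes). Esyt2, a tether between the endoplasmic reticulum and the plasma membrane from the vesicle fusion list of Syt13, was 1.83 higher in Tw2 cells in GM and 0.72 higher at 48 on the log2(CPM + 1) scale, a difference of −1.114 ± 0.26 (SE, limma adjusted p = 0.0235). Impad1, an inositol monophosphatase-like enzyme of the Golgi from the list of Isyna1, was 2.59 higher in GM and 1.17 higher at 48, a difference of −1.423 ± 0.39 (limma adjusted p = 0.0391). Esyt2 was at 41.3 and 61.5 CPM in Pax7_GM and 191 and 173 CPM in Tw2_GM, and Impad1 at 20.1 and 40.1 CPM and 188 and 166 CPM. Over all 83 listed family genes the same test called 15 (18.1%), and over all genes 18.7%, so a change of the lineage difference with the culture is not particular to these 2. Both lie in the comparison with the Pax7_GM libraries, which differed from each other more than those of any other group.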

How the results depend on the processing

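The log2 lineage difference of each member stayed below 0 in both cultures under all 16 alternatives. For most of them this was fixed in advance, because every Pax7 library lay above every Tw2 library for each member. Only quantile normalization and trend removal could have turned the sign, since size factors raise every Pax7 library and lower every Tw2 library. The calls of Isyna1, Pcbd1 and Tmem179 (both lineages) and AW551984 (Pax7) between the cultures were kept in all 16. Size factors moved the median of all genes from 0.34 to −0.50 in GM and from 0.27 to −0.36 at 48. Genes called between the lineages in GM, 2655 higher and 1417 lower in Tw2, became 1393 higher and 2940 lower with size factors; 2208 were lower with quantile normalization and 784 with the GC and length trend removed. At 48, 2363 higher and 1205 lower became 945 and 2631 with size factors, and 688 were lower with the trend removed. Leaving out 1 library gave 1462 (without the deeper Tw2_48) to 2705 higher and 671 (without the shallower Pax7_48) to 1513 lower at 48, with 690 lower without the deeper and 780 without the shallower Tw2_48. Members called lower at 48, 2 in each lineage, were 1 in Pax7 cells with size factors, with eBayes with trend and with only 4 libraries, and 1 in Tw2 cells with size factors and a pseudocount of 5; leaving out 1 library gave 1 to 3 in Pax7 and 1 to 2 in Tw2 cells. Other settings added calls. In Pax7 cells Syt13 was called lower at 48 with a pseudocount of 5 and with quantile normalization, and Dhrs4 with trend removal (−0.40). In Tw2 cells trend removal added Atp6v0e2 as lower (−0.52) and AW551984 as higher, and size factors added Syt13 as higher (0.52). Size factors reversed the culture change of Dhrs4 in Pax7 cells (0.068), and of AW551984 (0.12) and Atp6v0e2 (0.19) in Tw2 cells, and trend removal that of AW551984 (0.42). Without the deeper Tw2_48 library AW551984 was at 0.16 and Syt13 at −0.035 in Tw2 cells, in leave-one-out ranges of −0.29 to 0.16 and −0.035 to 0.39. In GM, trend removal reversed the lineage difference of Rnasek (0.54), Atp6v1f (0.26), Rdh5 (0.43), Hsd17b7 (−0.21) and Antxr2 (−0.41), and size factors those of Hsd17b7 (−0.19) and Antxr2 (−0.23). At 48 Antxr2 was at −0.14 and −0.11 with these. The cause was not tested. No paired analysis was possible because the deposited columns are group means that carry no replicate numbers. Depth limits the Tw2 values of AW551984 and Tmem179, which rest on 5 to 10 reads at 48.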

Other observations

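The neighbours of the 7 genes were looked at after the data had been seen. Within 250 kb on each side lie 107 other coding genes, of which 23 are listed, and 12 of these 23 were called lower in Tw2 in both cultures (limma, adjusted p under 0.05), where the share over all listed genes is 14.7%. They include 3 of 8 listed neighbours of Dhrs4, among them Fitm1 (−2.89 ± 0.16 in GM and −1.77 ± 0.16 at 48, Tw2 minus Pax7 on the log2(CPM + 1) scale), 4 of 7 of Isyna1, among them Rab3a (−1.11 ± 0.18 and −1.04 ± 0.18), and both of Atp6v0e2, Lrrc61 (−1.37 ± 0.20 and −0.78 ± 0.20) and Repin1 (−1.05 ± 0.16 and −1.13 ± 0.16). The only listed neighbour of Syt13, Trp53i11, was lower too (−1.50 ± 0.16 and −2.06 ± 0.16), and AW551984 has none that is listed. With the GC and length trend removed 3 of 23 were called lower in both, against 6.94% of all genes, with size factors 20 of 23 against 43.5%, and with quantile normalization 17 of 23 against 26.5%.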
